A study of Mus musculus with 2 samples.

Results

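Arterial-like cells were picked out of the blood endothelial cells of 2 mouse mammary tumor models, PyMT-M and PyMT-N, profiled by droplet-based single-cell RNA sequencing. Both models are transplantable sublines of the MMTV-PyMT tumor, in which the polyoma middle T oncogene is driven in mammary epithelium, and the study classes PyMT-M as High-MAC (rich in macrophages) and PyMT-N as Low-MAC (poor in macrophages and rich in neutrophils). Tumors were grown in the mammary fat pad of young adult female C57BL/6 mice, with no treatment named for either model, dissociated, depleted of CD45+ and Ter119+ cells, enriched with CD31 and CD144 beads and sorted as CD31+ CD144+ cells. Cells of 3 tumors were pooled into 1 library per model, so the animals cannot be told apart within a library and no difference between PyMT-M and PyMT-N has a replicate check.

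A barcode entered the blood endothelial gate with at least 1000 detected genes, at most 10% mitochondrial UMIs (counted RNA molecules), at least 5 UMIs of Pecam1, Flt1, Emcn and Kdr together, at most 1 UMI of Krt8, Krt18, Rhox5, Col1a1, Col3a1 and Ptprc together, no Prox1 UMI, fewer than 8 UMIs of the cell cycle genes Mki67, Top2a, Cdk1, Birc5, Ube2c, Cenpf and Nusap1, and fewer than 3 UMIs of the venule genes Ackr1 and Selp. Of 14795 barcodes, 1309 passed, 456 in PyMT-M and 853 in PyMT-N. The 15% with the highest summed level, in CPM (the UMIs of a gene scaled to a common total per cell), of the 6 genes Gja5, Gja4, Bmx, Sema3g, Hey1 and Fbln5 were called arterial-like, and the other 85% serve as the reference. This gave 196 arterial-like cells, 91 in PyMT-M and 105 in PyMT-N, with 365 and 748 reference cells. The lowest score inside the cut was 417 CPM and the highest outside it 416 CPM, and 17 arterial-like and 41 reference cells lay within 50 CPM of the cut. The class is cut from a score, and no clustering was run.

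Arterial endothelium lines the vessels that carry blood toward the tissue. Notch signaling, SOX17 and flow keep its identity, and its cells are coupled by the gap junction proteins connexin 40 (Gja5) and connexin 37 (Gja4). Artery walls hold elastic fibers and smooth muscle, whereas capillaries exchange fatty acids and solutes and tip cells lead new sprouts.

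Depth differed between the libraries. An arterial-like cell had a median of 3683 UMIs and 1913 genes in PyMT-M and 11437 UMIs and 3753 genes in PyMT-N, beside 5279 and 12244 UMIs in the reference cells. In all, the arterial-like cells of PyMT-M held 387744 UMIs, where 1 UMI is worth 2.58 CPM, and those of PyMT-N 1302018, where it is worth 0.768 CPM. The median mitochondrial share was 2.96% and 2.87%. Of the barcodes, 20 occurred in both libraries, and none of these was in the gate. Intervals are at 95% and cover counting error only, not the spread between tumors.

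The cells carried the endothelial genes that the rule had not used. Cdh5, which encodes the CD144 used in the sort, was at 1088 CPM in PyMT-M and 1471 CPM in PyMT-N arterial-like cells, against 3.69 and 1.89 CPM in cells with no UMI of the gate genes. Esam was at 776 and 882 CPM and Cldn5, a tight junction protein, at 529 and 898 CPM. Genes of smooth muscle and pericytes were mixed. Myh11, Cnn1, Cspg4 and Notch3 had no UMI in arterial-like cells of either library, whereas Acta2, smooth muscle actin, was at 43.8 CPM against 14.7 CPM in the PyMT-M reference, in 7 cells, a log2 ratio of 1.57 (0.62 to 2.48), and at 3.07 against 1.62 CPM in PyMT-N. The fibroblast genes outside the gate summed to 7.74 CPM in PyMT-M and 3.07 CPM in PyMT-N. The mural list summed to 132 CPM in arterial-like and 67.3 CPM in reference cells of PyMT-M, and to 327 and 335 CPM in PyMT-N, where Abcc9 and Kcnj8, channel subunits, made 156 and 145 CPM of the arterial-like sum. Tagln, a smooth muscle gene, was at 36.1 against 6.88 CPM in PyMT-M, where 1 cell held 71.4% of its UMIs, and at 16.1 against 1.92 CPM in PyMT-N, where 1 cell held 61.9%. The part of mural RNA in the differences reported was not tested. Hemoglobin UMIs in PyMT-N arterial-like cells, 206 CPM, all came from 1 cell. Tumor genes outside the gate summed to 28.4 CPM in arterial-like and 43.8 CPM in reference cells of PyMT-M and to 158 and 202 CPM in PyMT-N, where Spp1 made 153 CPM of the arterial-like sum, and leukocyte genes summed to at most 18.4 CPM.

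The 6 genes of the rule were not used equally. Gja4 gave 38.9% of their UMIs in the PyMT-M arterial-like cells and 42.3% in the PyMT-N ones, at 580 and 465 CPM against 2.95 and 10.9 CPM in the reference. Fbln5, an elastic fiber protein, was at 353 and 202 CPM, and Hey1, a target of Notch, at 232 and 199 CPM. Sema3g, an arterial semaphorin, was at 160 and 88.3 CPM. Gja5 was at 137 and 121 CPM, in 15 of 91 and 22 of 105 cells. Bmx, an arterial kinase, was at 31.0 and 24.6 CPM. These levels chose the cells and are a description. At least 2 of the 6 genes were detected in 60 of the PyMT-M cells (65.9%) and 93 of the PyMT-N cells (88.6%), against 6 (1.64%) and 212 (28.3%) of the reference cells. In PyMT-M 25 arterial-like cells (27.5%) entered on 1 or 2 UMIs, in PyMT-N 2 (1.90%).

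The stretches just upstream of 2 of these genes are shown, of Gja4 because it carried the largest share of the score and of Bmx because it is the one gene, of the 5 with a window, that has both searched motifs in the bases before its start. One motif was TGGGAA, the core bound by the Notch partner RBPJ. The other was ACAAT, the core bound by SOX factors, which reads ATTGT when it lies on the opposite strand. Both strands were searched, and in the stretches printed the motifs do not overlap. Windows from 250 bases before to 50 bases after a start came from RefSeq on GRCm38.p6, and 5 of the 6 genes have one, Hey1 being the gene with none in that table. The 250 bases before each start read as follows, 5′ to 3′ on the strand of the gene, with the motif letters in capitals.
Gja4, chr4:127314040-127314289, minus strand: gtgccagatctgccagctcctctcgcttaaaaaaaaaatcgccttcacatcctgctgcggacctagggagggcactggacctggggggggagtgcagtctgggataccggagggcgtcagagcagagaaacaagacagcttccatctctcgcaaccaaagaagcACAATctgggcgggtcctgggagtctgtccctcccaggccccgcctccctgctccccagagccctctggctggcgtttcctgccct
Bmx, chrX:164258194-164258443, minus strand: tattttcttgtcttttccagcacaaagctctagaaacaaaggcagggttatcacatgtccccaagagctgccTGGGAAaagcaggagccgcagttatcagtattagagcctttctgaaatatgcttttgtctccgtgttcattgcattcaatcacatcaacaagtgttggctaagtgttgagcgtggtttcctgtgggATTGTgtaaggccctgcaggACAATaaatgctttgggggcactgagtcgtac
Over the whole 300 bases, TGGGAA was found for Bmx, Sema3g and 1 of the 2 windows of Fbln5, and ACAAT for Gja4, Bmx and that same Fbln5 window. Of all 32851 windows, 25.6% hold TGGGAA and 31.0% hold ACAAT, so such a match is common, and it says nothing of whether a factor binds there.

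Each gene of the rule was also measured in cells chosen by the other 5 alone, which asks whether these genes sit in the same cells. Leaving out Gja5 changed no member, and all its 53 UMIs in PyMT-M and 158 of its 161 UMIs in PyMT-N were in the chosen cells. This put Gja5 at 137 CPM against 0 UMIs in PyMT-M, with a lower 95% limit of 6.19 for the log2 ratio, and at 121 against 0.304 CPM in PyMT-N, which is a log2 ratio of 8.64 (7.07 to 10.94). Bmx was higher by 4.88 (2.68 to 8.09) in PyMT-M and 3.96 (3.03 to 4.96) in PyMT-N on the log2 scale. Gja4 was higher by 3.61 and 3.11, and Sema3g by 3.28 and 2.39. Hey1 followed with 2.70 (2.16 to 3.25) and 1.24 (0.98 to 1.50). Fbln5 was the least bound to the others, with 1.88 (1.44 to 2.31) in PyMT-M and 0.62 (0.36 to 0.87) in PyMT-N. Fbln5 was also the rule gene seen outside endothelium. In PyMT-N 782 of 3438 cells with no UMI of the gate genes (22.7%) had a Fbln5 UMI at a median of 20254 UMIs, and 6.06% did after thinning each cell to 3000 UMIs, beside 16.8% of reference and 39.0% of arterial-like cells thinned alike. In PyMT-M 0.296% of such cells had one. The other 5 genes were found in 0.0395 to 1.16% of them. Whether free RNA adds to Fbln5 in PyMT-N endothelium was not tested.

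**Figure D1:**
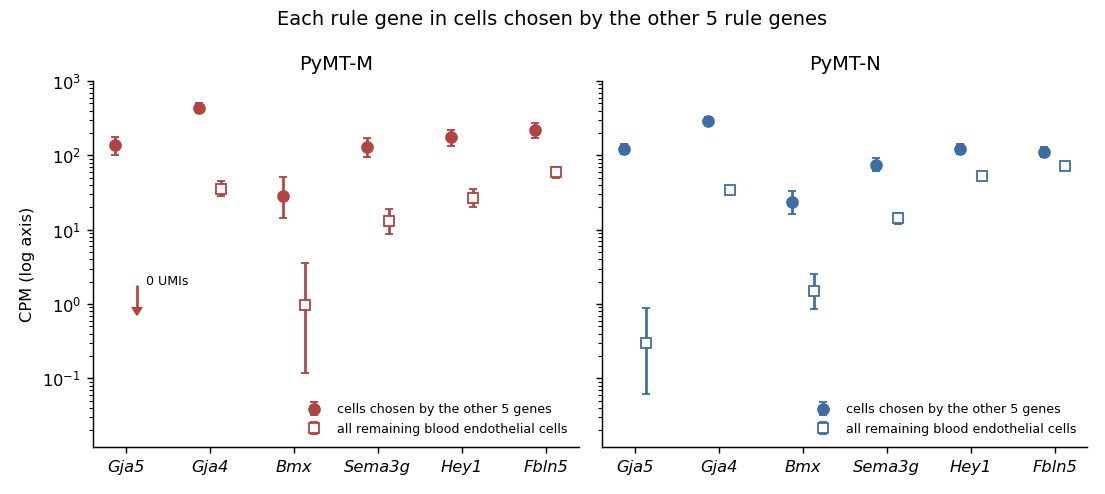
Level in CPM (log axis) of each rule gene in cells chosen by the other 5 rule genes (filled circles) and in all remaining blood endothelial cells (open squares), for PyMT-M and PyMT-N. Bars are 95% Poisson intervals, and the arrow marks the upper limit at 0 UMIs. Filled circles sit above open squares for all 6 genes in both libraries, with the widest gap for Gja5 and the narrowest for Fbln5 in PyMT-N, at 112 against 72.6 CPM.

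Arterial-like cells were 91 of 456 gated cells in PyMT-M, 19.96% (Clopper-Pearson 16.4 to 23.9%), and 105 of 853 in PyMT-N, 12.3% (10.2 to 14.7%), a difference of 7.65 percentage points (3.35 to 12.2). PyMT-M cells were shallower, and the difference depended on how cells were chosen. In PyMT-M and PyMT-N the shares were 14.9% and 7.39% for the top 10%. They were 22.6% (18.8 to 26.7%) and 18.6% (16.1 to 21.4%) for the top 20%. For the rule without Fbln5 they were 18.0% (14.6 to 21.8%) and 13.4% (11.2 to 15.8%). The intervals of the libraries overlapped for the top 20% and without Fbln5. Some other choices gave smaller differences. With each cell thinned to 3000 UMIs before scoring, 60 of 376 PyMT-M cells (16.0%) and 123 of 847 PyMT-N cells (14.5%) were in the top 15%, and the difference was 1.44 points (-2.94 to 6.14). This leaves out cells under 3000 UMIs, so both the depth and the cells changed. Counting only cells with 3 or more rule UMIs gave 14.5% and 12.1%, a difference of 2.40 points (-1.51 to 6.55). Under the study's limits on detected genes, which 222 of the PyMT-M and 822 of the PyMT-N gated cells pass, the shares were 14.9% and 15.1%, and PyMT-M was lower by 0.22 points (-5.35 to 5.66 for PyMT-M minus PyMT-N). The interval of the difference included 0 after thinning, with 3 or more rule UMIs and under the study's limits. It also did so under a stricter gate on genes of other cell types, at 0.80 points (-8.43 to 8.29). The part of depth in the share was not tested apart from the choice of cells.

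Other markers of arteries, a list of 25 genes that shares none with the rule, were higher in the arterial-like cells. The list was chosen with earlier results of these data known, so its sums and counts are a description and no independent support. Their summed level was 6086 CPM against 3109 CPM in PyMT-M, a log2 ratio of 0.97 (0.90 to 1.04), and 5483 against 3226 CPM in PyMT-N, with a log2 ratio of 0.77 (0.73 to 0.80). A gene was called where it differed at least 2-fold, with 5 CPM added, in both libraries. Of the 21 markers with enough UMIs, 10 were called higher and 0 lower, where 52 of all 9074 genes measured were called higher (0.573%) and 20 lower (0.22%). With shares this low, 0 called in one of the short lists below says little. In one library alone the same threshold took 237 genes higher (2.61%) and 286 lower (3.15%) for PyMT-M, and 76 (0.838%) and 51 (0.562%) for PyMT-N, which has more UMIs. Of the 21, 18 were above 0 in both libraries, as were 32.7% of all genes. The median log2 ratio with 5 CPM added over these markers was 1.51 in PyMT-M, where that of all genes was 0.0075, and 0.93 in PyMT-N, where it was 0.024. With a reference matched on UMIs per cell, 45 of the 52 genes were still called higher, and with 3 or more rule UMIs asked of each cell, all 52. When cells were chosen on 50% of their UMIs and measured on the rest, 27 of the 52 were.

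Stmn2, a microtubule regulator, was at 193 CPM in arterial-like and 7.37 CPM in reference cells of PyMT-M, and at 99.8 and 15.5 CPM in PyMT-N, which are log2 ratios of 4.71 (3.90 to 5.62) and 2.69 (2.34 to 3.04). Cxcl12, the chemokine that binds CXCR4, was at 601 against 126 CPM and 128 against 17.3 CPM. Dkk2, a secreted WNT modulator, was at 248 against 35.4 CPM and 176 against 39.9 CPM. In each of these the 2 libraries moved the same way by more than the counting error.

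Efnb2, the ephrin that marks arteries against EPHB4 on veins, was at 418 against 90.9 CPM in PyMT-M and 574 against 205 CPM in PyMT-N, log2 ratios of 2.20 and 1.48. Rbp7, a retinol-binding protein, was at 426 against 106 CPM and 50.7 against 11.2 CPM. Vegfc, a ligand of VEGFR3, was higher by 1.75 and 1.12, the secreted chaperone Clu by 1.87 and 1.46, and the guidance receptor Unc5b by 1.29 and 1.05 on the log2 scale. Mgp, an inhibitor of calcification, was at 87.7 against 0.983 CPM in PyMT-M and 185 against 53.1 CPM in PyMT-N, but 1 cell held 70.6% of its UMIs in the first case and 1 cell 66.8% in the second.

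The other 11 measured markers did not pass the threshold in both libraries. Jag1, a Notch ligand, was higher by 1.67 (1.01 to 2.31) in PyMT-M and 1.03 (0.67 to 1.38) in PyMT-N, and Sox17, an arterial transcription factor, by 1.34 and 0.67. Eln, elastin itself, was at 85.1 against 5.90 CPM in PyMT-M, where 1 cell held 51.5% of its UMIs, and at 11.5 against 4.76 CPM in PyMT-N. Dll4, the Notch ligand shared by arterial and tip cells, had log2 ratios of 0.27 (-0.05 to 0.57) and 0.51 (0.37 to 0.65). Gja1 and Mecom were close to even, with log2 ratios of 0.18 and 0.25 for Gja1 and of 0.06 and 0.38 for Mecom. Hey2 had no UMI in arterial-like cells of either library.

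**Figure D2:**
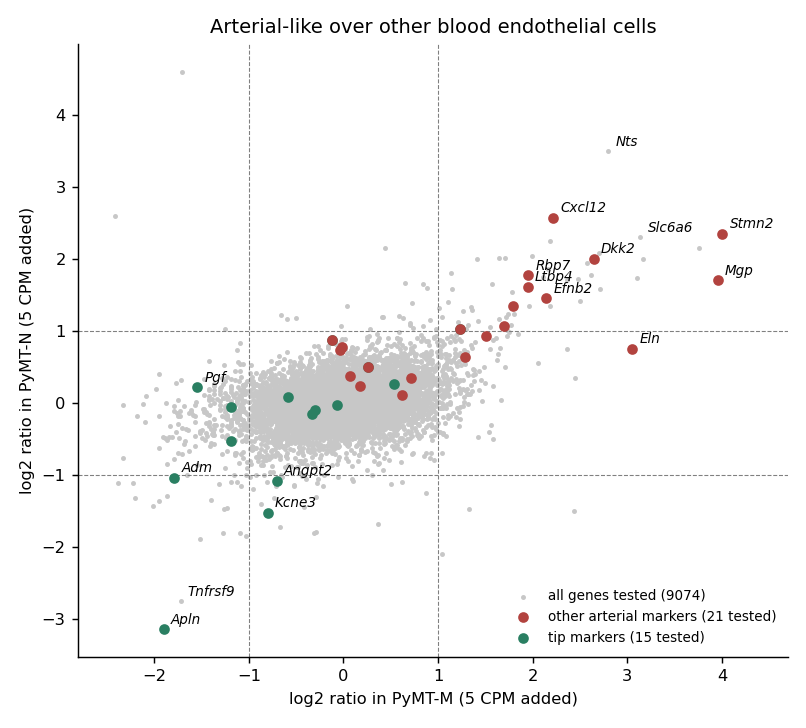
Log2 ratio of arterial-like over other blood endothelial cells, with 5 CPM added, in PyMT-M (horizontal axis) and PyMT-N (vertical axis) for all 9074 genes measured (grey), other arterial markers (red) and tip markers (green), with dashed lines at the 2-fold threshold. Of the 21 arterial markers 10 lie in the upper right corner, and the tip markers Apln and Adm lie in the lower left one.

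The Notch list, which leaves out Hey1 and also holds Epas1, had log2 ratios of its sum of 0.52 (0.42 to 0.62) in PyMT-M and 0.33 (0.28 to 0.38) in PyMT-N. Of its members 0 of 16 were called in either direction and 10 of 16 were above 0 in both libraries. Epas1 gave 255 of the 973 UMIs of the sum in PyMT-M and 714 of 3491 in PyMT-N, and the sum without it was not computed. Beside Jag1, the highest were Epas1, a hypoxia-inducible factor listed here for its arterial role, at 1.19 and 0.76, and the ligand Jag2 at 1.18 and 0.52. The receptor Notch1 had 0.79 and 0.48, and Notch4 had 0.54 and 0.37. Hes1, a Notch target outside the HEY family, was lower, at 49.0 against 101 CPM in PyMT-M and 92.9 against 127 CPM in PyMT-N, log2 ratios of -1.05 (-1.81 to -0.37) and -0.45 (-0.73 to -0.18). Hey1, also a Notch target, is higher by the choice of cells and is no comparison.

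Among 24 transcription factors 0 were called and 19 were above 0 in both libraries. Klf4 and Klf2, which respond to laminar flow, were higher by 1.88 (1.30 to 2.46) and 1.19 (0.93 to 1.45) in PyMT-M and by 1.06 (0.65 to 1.45) and 0.92 (0.74 to 1.09) in PyMT-N. Id3, Smad7 and Id1, targets of BMP signaling, had 1.36 and 0.82, 1.20 and 1.02, and 1.09 and 0.55 in that order of genes, PyMT-M first. Nr2f2, the factor that sets venous identity, was lower, at 43.8 against 89.5 CPM and 28.4 against 71.3 CPM, log2 ratios of -1.03 (-1.84 to -0.31) and -1.33 (-1.85 to -0.85). Erg and Ets2, general endothelial factors, were within 0.10 of 0 in both libraries.

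Elastic matrix genes, Fbln5 aside, summed to 1081 against 266 CPM in PyMT-M and 629 against 350 CPM in PyMT-N, log2 ratios of 2.02 (1.84 to 2.21) and 0.85 (0.73 to 0.96). Of 8 members 3 were called higher. Mgp gave 34 of the 419 UMIs of the sum in PyMT-M and 241 of 819 in PyMT-N. Besides Mgp these were Ltbp4, which anchors TGF-beta in elastic fibers, at 353 against 88.0 CPM and 287 against 90.2 CPM, and Fbln2, at 364 against 66.9 CPM and 51.5 against 12.1 CPM. Basement membrane genes shifted less, with log2 ratios of the sums of 0.09 and 0.06 and 0 of 14 called. Within that list Lamb2 was at 1.06 and 0.96 and Lama4, the laminin chain of capillary walls, at -0.68 and -0.16. Junction genes had log2 ratios of 0.04 and 0.08 as a sum, with 0 of 13 called, and Jam2 was the highest at 1.11 and 0.57.

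Of genes for vascular tone and flow, 1 of 14 was called. This was Edn1, the vasoconstrictor endothelin 1, at 116 against 50.1 CPM in PyMT-M and 36.9 against 6.88 CPM in PyMT-N. Ace, which makes angiotensin II, was at 1.55 and 0.89, Thbd, an anticoagulant receptor, at 0.96 and 0.94, and Nos3, which makes nitric oxide, at 0.36 and 0.35. Of 11 genes listed for mural cell recruitment, which are ligands and the receptor S1pr1, Efnb2 was the one called. Pdgfb was at -0.10 and 0.13, and Angpt2 was lower at -0.72 and -1.14.

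Tip markers had log2 ratios of their sum of -0.55 (-0.65 to -0.46) in PyMT-M and -0.12 (-0.16 to -0.08) in PyMT-N. Of 15 tested 2 were called lower, 1 higher, and 9 were below 0 in both libraries, as were 28.1% of all genes. Apln, the ligand apelin, was at 139 CPM against 532 CPM in PyMT-M and at 16.9 against 187 CPM in PyMT-N, log2 ratios of -1.93 (-2.36 to -1.54) and -3.47 (-4.15 to -2.87). Adm, adrenomedullin, was at 64.5 against 235 CPM and 49.9 against 107 CPM. Kcne3 was at -0.83 and -1.60. Unc5b, which is also on the arterial list, was the member called higher. Esm1, a tip marker, was at 0.54 (0.27 to 0.80) and 0.27 (0.11 to 0.43). With 3 or more rule UMIs asked of each cell, 18 of the 20 genes were still called lower. The tip sum was not lower throughout the class. In PyMT-M it was 1955 CPM in the highest 5% of the score and 1889 CPM in the next 5%. From 10 to 15% it was 4496 CPM, beside 3954 CPM in PyMT-M cells with no rule UMI. In PyMT-N it was 2478 CPM in the highest 5%, then 4238 and 4180 CPM, beside 3588 CPM with no rule UMI.

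The capillary sum had log2 ratios of 0.25 (0.18 to 0.31) and -0.02 (-0.07 to 0.02). Of the 6 capillary markers measured 0 were called, where 0.573% of all genes were called higher and 0.22% lower. These markers differed in direction. Cd36 and Fabp4, which take up and bind fatty acids, had log2 ratios of 0.84 and 0.50 (Cd36) and 0.64 and 0.38 (Fabp4), whereas Rgcc was at -0.68 and -0.78 and Aplnr, the apelin receptor, at -0.29 and -1.87. Of 8 venous genes 0 were called, but their sum was higher, with log2 ratios of 0.21 (0.05 to 0.36) and 0.29 (0.22 to 0.35). Vwf was at 0.65 and 0.55 and Icam1 at 0.42 and 0.29, and Nr2f2 was the lowest. Flt4, a lymphatic and tip receptor, was at 0.22 and 0.04. Ccl21a, a lymphatic chemokine, was called lower, at 4.61 against 30.6 CPM in PyMT-N, but its 0 UMIs in PyMT-M have an upper 95% limit of 9.51 CPM beside 9.34 CPM in the reference, so a difference was not detectable there. VEGF and Tie genes included the called Vegfc and Apln named above. Cell cycle genes outside the gate had 0 of 6 called and sums of -0.60 and -0.51. Stress genes of dissociation had a log2 ratio of 0.05 as a sum in both libraries, with 0 of 12 called. The MHC class I list had 0 of 9 called.

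Outside the lists, the 10 genes called higher whose lesser ratio of the 2 libraries was largest were Nts, Slc6a6, Lama3, Sulf1, Slc45a4, Htra1, Auts2, Glul, Npr3 and Rasgrf2. Nts, the precursor of neurotensin, was at 108 against 11.3 CPM in PyMT-M, where 1 cell held 57.1% of its UMIs, and at 229 against 15.7 CPM in PyMT-N, in 15 cells. Slc6a6, a taurine transporter, was at 147 against 12.3 CPM and 56.8 against 7.49 CPM, and 1 cell held 44.6% of its PyMT-N UMIs. Glul, glutamine synthetase, was at 255 against 38.8 CPM and 144 against 33.3 CPM. Lama3, a laminin chain, had log2 ratios of 2.35 and 2.92. Sulf1, which trims heparan sulfate, had 5.81 (4.13 to 8.16) and 3.17 (2.51 to 3.83), and 1 cell held 42.2% of its PyMT-N UMIs. Htra1, a secreted protease, had 3.84 and 2.48. Npr3, the clearance receptor of natriuretic peptides, had 2.89 and 2.56.

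Of the genes called lower outside the lists, the 6 lowest by the same order were Tnfrsf9, Ankrd37, Ubd, Slc16a3, Ch25h and Odc1. Tnfrsf9, the receptor 4-1BB, was at 51.6 against 181 CPM in PyMT-M and 9.22 against 90.5 CPM in PyMT-N, log2 ratios of -1.81 (-2.54 to -1.17) and -3.30 (-4.25 to -2.48). Odc1, the first enzyme of polyamine synthesis, was at 59.3 against 150 CPM and 20.7 against 84.6 CPM. Ankrd37, induced in hypoxia, had log2 ratios of -2.33 and -1.64, and Slc16a3, which exports lactate, had -1.71 and -1.60. Ch25h, which makes an oxysterol, had -2.66 and -2.14. Ubd, a ubiquitin-like protein, was counted 0 times in the PyMT-M and 2 times in the PyMT-N arterial-like cells, beside 14.3 and 11.7 CPM in the reference.

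The arterial signal was concentrated at the top of the score. In the highest 5% (38 PyMT-M and 27 PyMT-N cells) other arterial markers summed to 8819 and 9361 CPM. They fell to 5122 and 4698 CPM in the next 5%, 3836 and 4247 CPM from 10 to 15%, and 3685 and 3457 CPM just outside the cut, and were at 3138 and 2930 CPM in cells with no rule UMI. Stmn2 and the elastic matrix list were steeper. Stmn2 went from 471 and 420 CPM in the highest 5% to 51.7 and 13.7 CPM in the next, where PyMT-N cells with no rule UMI had 13.7 CPM. The elastic list went from 2026 and 1964 CPM to 613 and 267 CPM, with 446 CPM in PyMT-N cells with no rule UMI, and Mgp alone was 757 CPM of the highest PyMT-N band.

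Efnb2 was graded instead. It went from 664 to 347, 196 and 167 CPM over the 4 bands down to the 20% mark in PyMT-M, and from 880 to 538, 457 and 295 CPM in PyMT-N, with 76.6 and 102 CPM where no rule UMI was seen. Apln ran the other way, from 14.3 CPM in PyMT-M and 0 UMIs in PyMT-N in the highest 5% to 546 and 224 CPM with no rule UMI. From 10 to 15% the libraries differed for Apln, with 393 CPM (285 to 527) in PyMT-M and 20.4 CPM (10.6 to 35.7) in PyMT-N. Median depth in this band was 4109 UMIs for PyMT-M but 11709.5 for PyMT-N, and its part in the Apln values was not tested.

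**Figure D3:**
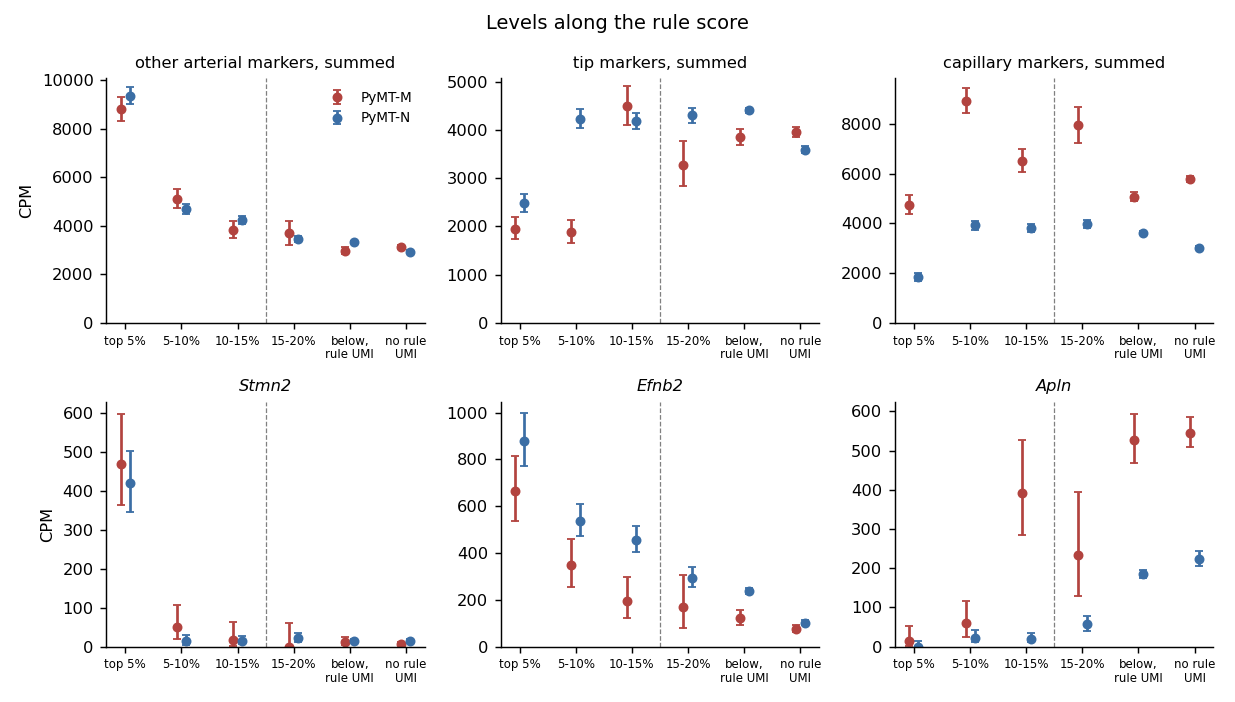
Level in CPM of summed lists and of Stmn2, Efnb2 and Apln in bands of the rule score, from the highest 5% of cells to cells with no rule UMI, for PyMT-M (red) and PyMT-N (blue). Bars are 95% Poisson intervals and the dashed line is the cut for arterial-like cells. Other arterial markers are highest in the top 5%, at 8819 and 9361 CPM, Efnb2 declines over all bands, and Apln is lowest at the top.

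Arterial-like cells with a Gja5 UMI, 15 in PyMT-M and 22 in PyMT-N, differed from the 76 and 83 without one. Both kinds would be members without Gja5 in the rule, and their median depths with and without Gja5 were 3726 and 3610.5 UMIs for PyMT-M, 11378 and 11474 for PyMT-N. Cells with Gja5 also held more of other rule genes. On the log2 scale Bmx was higher by 2.72 and 3.62, Sema3g by 1.96 and 2.31, and Gja4 by 0.64 and 1.69. Fbln5 was higher by 1.06 and 1.12, and Hey1 by 0.24 (-0.60 to 1.00) and 0.68 (0.27 to 1.08). The split by Gja5 was not tested apart from the score. The genes compared were chosen after values had been seen. The elastic list, with Mgp in it, was higher with Gja5, at 2667 against 744 CPM in PyMT-M and 1925 against 312 CPM in PyMT-N. Mgp gave 27 of its 181 UMIs with Gja5 in PyMT-M and 174 of 492 in PyMT-N. Over all arterial-like cells, 1 cell held 70.6% of the Mgp UMIs in PyMT-M and 1 cell 66.8% in PyMT-N. For Eln 1 cell held 51.5% in PyMT-M, so the Mgp ratios and this Eln ratio can rest on 1 cell each. Stmn2 was at 619 against 103 CPM and 415 against 22.9 CPM. Htra1 was higher by 3.34 (2.35 to 4.42) and 4.17 (3.28 to 5.16), and Sulf1 by 3.37 and 3.84. Other arterial markers summed to 8883 against 5493 CPM and 8889 against 4651 CPM.

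Several capillary and tip genes were higher in the cells without Gja5. Cd36 did not differ beyond counting error, at 356 CPM without and 398 CPM with Gja5 in PyMT-M and 39.2 and 35.2 CPM in PyMT-N. Fabp4 had log2 ratios, with over without Gja5, of 0.10 (-0.09 to 0.29) in PyMT-M and -0.42 (-0.60 to -0.24) in PyMT-N. Gpihbp1, which holds lipoprotein lipase on capillaries, was at 1644 CPM without and 501 CPM with Gja5 in PyMT-M, and at 1744 and 794 CPM in PyMT-N. Aplnr was at 197 against 29.5 CPM and 79.3 against 3.91 CPM, with 2 and 1 UMIs in the cells with Gja5. Apln had 0 UMIs in cells with Gja5 in both libraries, and 54 and 22 UMIs in those without. Tip markers were lower with Gja5 by -0.72 (-1.01 to -0.44) and -0.61 (-0.73 to -0.49), whereas Vwf was higher by 1.25 and 0.87. Efnb2 and Sox17 differed less, Efnb2 by 0.77 and 0.86 and Sox17 by 0.78 and 0.65. Some genes did not separate alike in both libraries. Rbp7 had a log2 ratio of -0.39 (-1.09 to 0.25) in PyMT-M and 3.13 (2.36 to 3.95) in PyMT-N, and Cxcl12 had 0.17 (-0.33 to 0.65) and 1.63 (1.17 to 2.09).

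**Figure D4:**
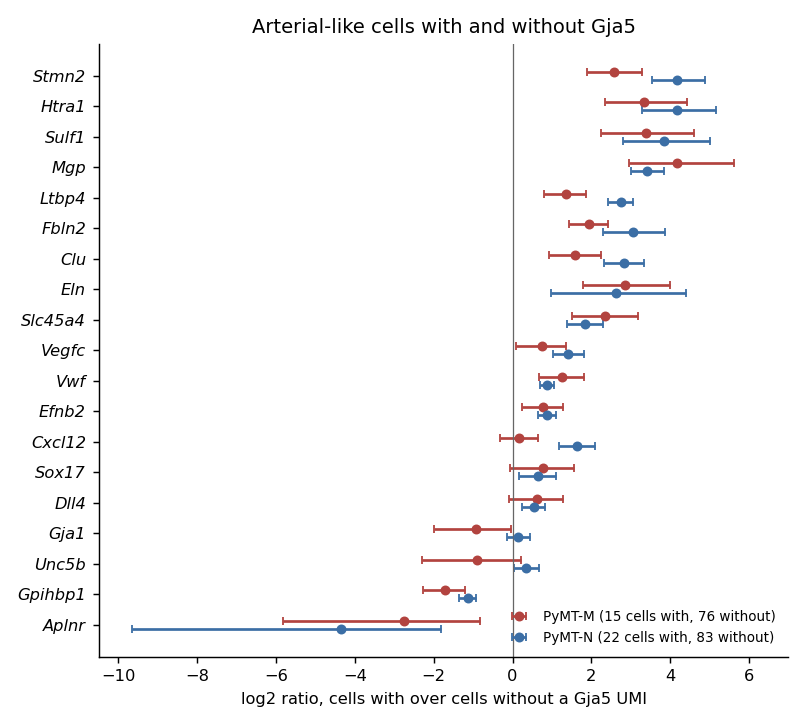
Log2 ratio of CPM in arterial-like cells with over those without a Gja5 UMI, for PyMT-M (red, 15 against 76 cells) and PyMT-N (blue, 22 against 83 cells), with 95% Poisson intervals. Stmn2, Htra1, Sulf1, Mgp and the elastic matrix genes Ltbp4, Fbln2 and Eln lie to the right in both libraries, and Gpihbp1 and Aplnr lie to the left. Of the Mgp UMIs 1 cell held 70.6% in PyMT-M and 1 cell 66.8% in PyMT-N, and of the Eln UMIs 1 cell held 51.5% in PyMT-M.

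The arterial-like cells of PyMT-M and PyMT-N were then compared with each other, which is the comparison of High-MAC and Low-MAC tumors, with 1 library on each side. Of these cells 27.5% in PyMT-M and 1.90% in PyMT-N entered on 1 or 2 rule UMIs. The part of this in the ratios between the models was not tested. Of 9086 genes, 361 were at least 2-fold higher in PyMT-M (3.97%) and 459 lower (5.05%), against 211 (2.32%) and 173 (1.9%) in the reference cells, which hold more UMIs. Interferon-induced genes were higher in PyMT-M, at 6548 against 2197 CPM, a log2 ratio of 1.58 (1.50 to 1.65), and the reference cells had 1.56 (1.53 to 1.59). Of 22 members 16 were at least 2-fold higher in PyMT-M arterial-like cells and 0 lower, and 19 in the reference. Isg15 was at 701 against 177 CPM, Irf7 at 611 against 97.5 CPM and Bst2 at 2063 against 699 CPM in arterial-like cells. MHC class I genes were higher by 0.98 (0.92 to 1.04) in arterial-like and 1.04 (1.01 to 1.06) in reference cells, with H2-K1 at 2956 against 1247 CPM. Within each library the interferon list was level between arterial-like and reference cells, at -0.01 (-0.07 to 0.05) in PyMT-M and -0.03 (-0.08 to 0.03) in PyMT-N. Cxcl10 was its 1 member called, at 77.4 against 295 CPM and 30.7 against 82.0 CPM. Its UMIs were in 8 arterial-like cells of each library, and 1 cell held 40% in PyMT-M and 32.5% in PyMT-N. With the top 20% chosen, its log2 ratio in PyMT-N was 0.27.

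Members of the arterial list differed between the models in both directions. Their sum was higher in PyMT-M by 0.15 (0.08 to 0.22), but 3 of 21 were at least 2-fold higher (Rbp7, Cxcl12 and Eln) and 3 lower (Mgp, Unc5b and Cxcr4). The Notch list, with Epas1 in it, had a log2 ratio of -0.10 (-0.20 to 0.01) as a sum, with 0 of 16 at least 2-fold apart. Rbp7 was at 426 CPM in PyMT-M and 50.7 CPM in PyMT-N, and Cxcl12 at 601 and 128 CPM. Elastic matrix was higher by 0.78 (0.61 to 0.95) in arterial-like cells and lower by -0.40 (-0.53 to -0.26) in reference cells, and the difference between these was not tested. Of its 8 members 3 were at least 2-fold higher and 1 lower in arterial-like cells. Among those higher, Efemp1 had 5 UMIs in each library, and for Eln 1 cell held 51.5% of the PyMT-M UMIs. In the reference 1 was higher and 2 lower. Those lower were Bgn, at 32.9 CPM in PyMT-M and 132 CPM in PyMT-N, and Mgp, at 0.983 and 53.1 CPM. The sums without Bgn and Mgp were not computed. Fbln2 was at 364 CPM in PyMT-M and 51.5 CPM in PyMT-N arterial-like cells. Capillary markers were higher by 0.97 (0.90 to 1.04) in arterial-like and 0.70 (0.67 to 0.73) in reference cells. Tip markers were lower by -0.53 (-0.62 to -0.43) in arterial-like and -0.10 (-0.13 to -0.06) in reference cells.

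Of genes with at least 10 UMIs in the arterial-like cells of each library, the highest in PyMT-M arterial-like cells were Phf11b, Cd36, Apol9a, Rbp7, Apln and Serpinb1a, with log2 ratios from 3.51 for Phf11b downward, and in the reference their ratios ran from 1.51 to 3.55. Cd36 was at 364 against 38.4 CPM, and 1 cell held 38% of its PyMT-N UMIs. Of the 54 Apln UMIs in PyMT-M arterial-like cells, 44 came from the 10 to 15% band of the score. For Serpinb1a 1 cell held 61.3% of the PyMT-M UMIs. The lowest were Robo1, Nav3, Ephb1, Spp1, Myh10 and Spsb1, from -3.69 to -2.39, with -3.55 to -1.91 in the reference. Robo1, a receptor of SLIT guidance cues, was at 25.8 CPM in PyMT-M and 332 CPM in PyMT-N. All 12 genes had the same direction in arterial-like and reference cells.

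**Figure D5:**
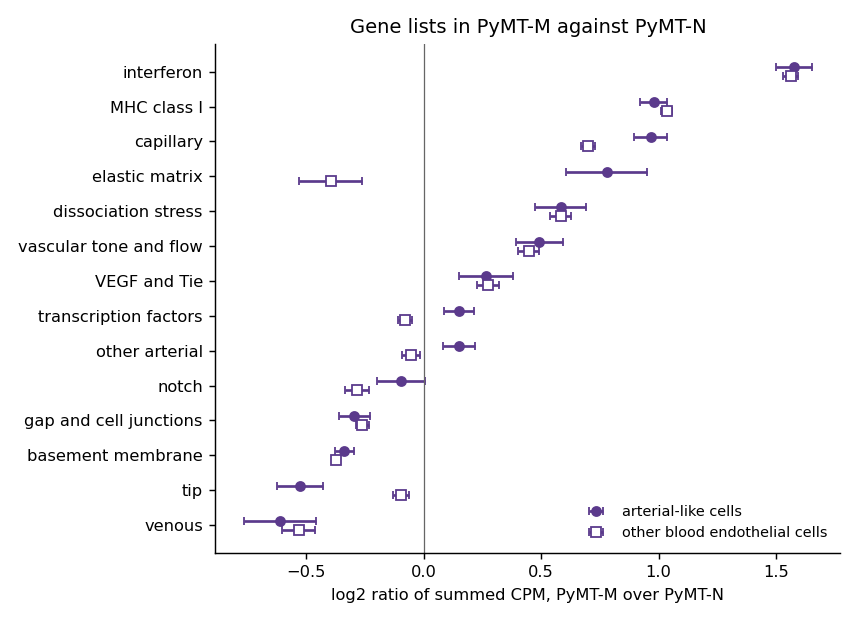
Log2 ratio of summed CPM, PyMT-M over PyMT-N, for 14 gene lists in arterial-like cells (filled circles) and in the other blood endothelial cells (open squares), with 95% Poisson intervals. Interferon and MHC class I genes lie furthest to the right in both kinds of cells, at 1.58 and 0.98 in arterial-like cells, and elastic matrix lies on opposite sides of 0. Its members Bgn and Mgp were lower in PyMT-M in the other cells, and the sums without them were not computed.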

How the data were processed

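Single-cell libraries (10x Genomics 3′) of CD31+ CD144+ sorted cells, 1 library per model from 3 pooled tumors, were read from UMI counts the authors deposited, whole numbers per gene and barcode over 33696 genes, without normalization. The submitters' processing notes name Cell Ranger 8.0.0 and mm39. The samples' protocol names collagenase I for dissociation, the study's methods collagenase II and dispase II. Of 26 symbols listed more than once the row listed first was used. PyMT-M held 7821 barcodes with 141067264 UMIs and PyMT-N 6974 with 116150425.

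The members and gene lists were chosen with earlier results of these data known. Counts were summed per library and class, scaled to CPM and compared as log2 ratios with exact Poisson intervals. Genes with at least 100 UMIs over the gated cells and 10 in each library were measured, and a called gene differed 2-fold in both libraries with 5 CPM added. Shares have Clopper-Pearson intervals, and their difference the square-and-add interval. No p-value was computed, since each model has 1 library. No doublet caller was run, and a strict gate, with none of the gate's UMIs of other types and at most 1 of the mural, fibroblast, tumor and leukocyte lists, was an alternative. Named genes are the 6 of the rule, per list those with the 4 largest and 2 smallest mean ratios, the 10 highest and 6 lowest called genes outside lists, and the 6 highest and 6 lowest between models. Further list members were named after their values were seen. Genes with near-identical copies (H2, Hspa1, hemoglobin) could share reads.

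Alternatives were the top 10% or 20%, a cut within each library, thinning to 3000 UMIs, the rule without Fbln5, the study's gene limits (at least 200 and within 2-fold of the median), the strict gate, a reference matched on depth in 5 bins, choosing on 50% of UMIs and measuring on the rest, a total without mitochondrial, ribosomal-protein and hemoglobin genes, 300 UMIs, 20 CPM added, and, chosen after the data were seen, 3 rule UMIs. Ratios were tested on simulated data. Computation ran in Python 3.11.15 with scipy 1.17.1, on numpy 2.4.6, and tables in pandas 2.3.3. Figures were drawn with matplotlib 3.10.9.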

Additional observations from a re-analysis of the deposited data

Results flagged for a closer look

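Across the lists 6 genes differed from the reference in opposite directions in PyMT-M and PyMT-N with intervals that exclude 0 in each library, and the difference between the libraries was not tested. Bgn, a matrix proteoglycan, had a log2 ratio of arterial-like over other cells of 1.45 (0.82 to 2.06) in PyMT-M and -1.56 (-1.97 to -1.18) in PyMT-N. Pdgfa, a growth factor for mesenchymal cells, had 1.77 (0.73 to 2.78) and -0.53 (-1.03 to -0.07), and 1 cell held 40% of its UMIs in PyMT-M. Fn1, fibronectin, had 0.55 (0.18 to 0.92) and -0.43 (-0.59 to -0.28). Lrg1, listed as venous, had 0.77 (0.43 to 1.10) and -0.17 (-0.33 to -0.01). Pgf, a ligand of VEGFR1 listed with the tip markers, had -1.59 (-2.11 to -1.12), with UMIs in 8 of 91 cells, and 0.23 (0.02 to 0.43). Rsad2, an interferon-induced gene, had -0.89 (-1.28 to -0.53) and 0.24 (0.03 to 0.45).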

How the results depend on the processing

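Of the alternatives for the shares, sums and counts, 43 kept the value within its error or, for counts, within 1.5 times, 39 moved it and 2 turned its direction. The difference in share, 7.65 points, was -0.094 with the cut set within each library (by construction near 0), -0.22 under the study's gene limits, 1.44 after thinning, 0.80 under the strict gate and 2.40 with 3 rule UMIs. Shares for the top 10%, the top 20% and the rule without Fbln5 are given above. The PyMT-M share was higher in each, with overlapping intervals for the top 20% and without Fbln5. Other arterial markers stayed higher throughout. In PyMT-M and PyMT-N their log2 ratios were 1.15 and 0.98 for the top 10%, 0.90 and 0.58 for the top 20%, 1.15 and 0.71 within each library, 0.80 and 0.61 after thinning, 1.12 and 0.72 without Fbln5, 0.79 and 0.71 under the study's limits, and 1.21 and 1.37 under the strict gate. The strict gate left 358 cells in PyMT-M, 54 of them arterial-like, and 98 in PyMT-N, 14 of them arterial-like, so its values rest on few cells. A depth-matched reference gave 0.81 in PyMT-M and choosing on 50% of UMIs 0.66 in PyMT-N. The 52 genes called higher became 92 (top 10%), 34 (study's limits), 34 (50% of UMIs, 27 of them among the 52), 28 (300 UMIs) and 27 (20 CPM). The 20 called lower became 55 (top 10%), 8 (top 20%), 8 (thinned), 31 (no Fbln5), 13 (study's limits), 69 (strict gate) and 5 (20 CPM). Genes higher in PyMT-M than PyMT-N went from 361 to 196 (300 UMIs) and 161 (20 CPM), and lower ones from 459 to 700 (top 10%), 711 (within each library), 724 (study's limits), 279 (strict gate), 282 (300 UMIs) and 144 (20 CPM). Except where an alternative tests fewer cells or genes, the cause was not tested.

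Directions turned for some values. The basement membrane sum was -0.0059 in PyMT-M and -0.066 in PyMT-N for the top 10%, -0.0059 in PyMT-M within the library, and in PyMT-N -0.0066 thinned and -0.071 under the strict gate. Ccl21a was 3.04 (top 20%) and 3.43 (no Fbln5) in PyMT-M, and 2.98 (thinned) and 1.42 (50% of UMIs) in PyMT-N. The lymphatic sum in PyMT-N was 0.96 (thinned) and 0.56 (50% of UMIs). Further values that turned were Cxcl10, called lower above, at 0.27 in PyMT-N (top 20%) and the capillary sum at -0.12 in PyMT-M (thinned). Gem turned to 0.20 and Il6 to 0.068 in PyMT-N (thinned). Nuak1 was at -0.17 in PyMT-M (study's limits) and the VEGF and Tie sum at 0.024 in PyMT-M (strict gate). No paired analysis was possible because each model has 1 library.

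A UMI in PyMT-M arterial-like cells is worth 2.58 CPM, so low genes there have wide intervals. With 1 library per model, differences between models cannot be told apart from differences between these pools.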
